A study of Mus musculus with 56 samples.

Results

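The mRNAs of 7 SLAM family receptors, *Slamf1*, *Slamf6*, *Slamf7*, *Cd244a*, *Cd48*, *Cd84* and *Ly9*, were followed through 7 sorted populations of fetus/graft-specific CD8 T cells (T_FGS), which bind OVA:Kb tetramer and so recognize a model antigen carried by the graft and the fetus. The members were taken by name, as the rows of the count table whose Ensembl identifiers map to these symbols, and they are 7 of the 55359 genes in the table. All 7 passed the filter on low counts that left 19659 genes for testing.

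Every sample came from spleen and lymph nodes of C57BL/6 female mice that were 8 to 12 weeks old at purchase, and 200 live T_FGS were sorted per library. Naive mice had neither graft nor pregnancy, and Sensitized mice had rejected a 2W-OVA.BALB/c skin graft. N+P mice were naive mice taken after a semi-allogeneic pregnancy by 2W-OVA.BALB/c males, and their T_FGS were sorted into C1 (PD1-) and C5 (PD1+CD73+). S+P mice were grafted, mated with such males at least 30 days later, and sorted into C4 (PD1-), C5 (PD1+CD73+) and C7 (PD1+CD73-). Naive and both N+P subsets had 3 samples each, Sensitized had 4, S+P C7 had 5, and the other S+P subsets had 6 each, each sample being 1 subset of 1 replicate number with its technical libraries summed. Cell suspensions were made from individual mice, and subsets with the same number are read here as 1 mouse from the numbering of the labels, which does not state it outright. The sorts came from more than 1 independent experiment, and the labels do not assign samples to them, so this batch could not be examined. Before the sort, T cells were enriched magnetically, a step meant to remove B, NK and erythroid cells. The gates used PD1 and CD73 protein and no SLAM receptor, and the labels name no gate for the Naive and Sensitized T_FGS. A figure legend of the paper has the T_FGS of each group sorted into their commonest subsets. Whether a gate was set on Naive and Sensitized cells is therefore not known here. In such bulk samples, fewer cells with an mRNA and less of that mRNA per cell cannot be told apart.

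Libraries held 6636532 to 32625243 counts, and samples 15547934 to 54809406. Summed CPM (counts scaled to library size after TMM normalization) of 6 CD8 T cell markers ran from 4489 to 8785 over the 30 samples, and *Cd4* was at 0 in 27 of them. Replicate 3 of S+P C7 and replicates 2 and 3 of S+P C4 stood apart with fewer than 9000 detected genes each, so results that rest on them are given with and without them. S+P C7 replicate 3 also held summed levels of 1003 CPM for 5 NK markers and 19860 CPM for 6 erythroid and platelet markers, against at most 79.1 and 208 CPM in the other S+P C7 samples. Its 4 dendritic cell markers summed to 509 CPM. In Sensitized replicate 1, 6 myeloid markers summed to 344.5 CPM, against at most 96.6 CPM in any other sample. S+P C7 replicates 4 and 6 had 26805 and 21247 detected genes, against at most 19796 in any other sample. One library was deposited under both Naive and S+P C4 with identical counts and was left out of both. Naive replicate 1 and S+P C4 replicate 1 therefore rested on 1 library each. S+P C4 replicates 2 and 3, S+P C5 replicates 2 and 3 and S+P C7 replicate 3 also had only 1 library each. In S+P C7, replicates 1 and 2 held a nearly identical pair of libraries. This pair was averaged and summed with the other library of replicate 1, giving 1 sample that is called replicate 1. Counts of mice below that involve S+P C7 pair it with replicate 1 of the other subsets, although it includes a library labeled replicate 2.

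SLAM family receptors are immunoglobulin-type surface proteins of hematopoietic cells. Most of them bind the same molecule on a neighboring cell, so that T cells can engage them on each other. CD48 and CD244 (2B4) are the exceptions and bind each other. CD48 is a GPI-anchored ligand without a cytoplasmic tail that, in mice, also binds CD2. The tails of most other members carry tyrosine motifs that recruit the adaptor SAP, encoded by *Sh2d1a*, which brings in the kinase FYN, and in its absence phosphatases such as SHP-1 and SHP-2. SLAMF7 signals through the related adaptor EAT-2 instead. In CD8 T cells, SLAMF6 (Ly108) marks progenitor-like cells during chronic stimulation, whereas CD244 is known from effector and exhausted cells and from NK cells.

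The 7 genes lie side by side on chromosome 1 of GRCm39, at chr1:171386708-171780737, a stretch of 394030 bp. *Slamf7* and *Ly9* are on the minus strand and the other 5 are on the plus strand. *Ly9* (chr1:171416173-171434978) lies within the span of *Cd244a* (chr1:171386708-171437315) but shares no exonic base with it. *Slamf7* shares 423 exonic bases with other annotated genes and *Slamf6* shares 295, and whether counting used strand is not given in the sources used here, so a few reads of these genes could have been assigned elsewhere.

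*Slamf6*, *Slamf7* and *Cd48* had the members' differences with an unadjusted p under 0.05, so the 250 bases before the annotated start of their canonical transcripts are shown, read from GRCm39 and written 5′ to 3′ on the strand of the gene. They are chr1:171744807-171745056 (plus) for *Slamf6*, chr1:171476581-171476830 (minus) for *Slamf7* and chr1:171509323-171509572 (plus) for *Cd48*. Capitals mark matches, on either strand, to motifs named after NFAT (TGGAAA), AP-1 (TGANTCA), RUNX (TGTGGT), TCF/LEF (CTTTGA), T-box (GGTGTGA) and ETS (GGAAGT) factors.
Slamf6: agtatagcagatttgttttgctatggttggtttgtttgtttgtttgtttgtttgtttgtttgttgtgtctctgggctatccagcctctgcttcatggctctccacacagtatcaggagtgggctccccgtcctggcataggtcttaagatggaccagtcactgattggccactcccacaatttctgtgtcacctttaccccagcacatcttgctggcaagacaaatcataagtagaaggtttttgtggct
Slamf7: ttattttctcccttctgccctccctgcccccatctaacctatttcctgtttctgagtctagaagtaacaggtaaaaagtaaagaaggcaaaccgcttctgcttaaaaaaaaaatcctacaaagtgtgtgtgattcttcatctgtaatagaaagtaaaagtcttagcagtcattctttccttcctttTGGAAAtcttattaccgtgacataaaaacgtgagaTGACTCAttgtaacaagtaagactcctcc
Cd48: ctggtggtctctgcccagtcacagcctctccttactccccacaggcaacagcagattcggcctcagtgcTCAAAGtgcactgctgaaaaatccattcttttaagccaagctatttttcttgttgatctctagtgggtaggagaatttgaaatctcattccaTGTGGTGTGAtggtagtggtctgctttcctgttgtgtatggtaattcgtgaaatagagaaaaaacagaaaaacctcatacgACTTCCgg

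The *Slamf7* window held an NFAT match from base -64 to -59 and an AP-1 match from base -29 to -23, counted from the base before the start. The *Cd48* window held a TCF/LEF match, an ETS match and a RUNX match from base -89 to -84 that overlaps a T-box match from base -86 to -80. No letters of the 6 motifs were found in the *Slamf6* window. Of 21770 such windows of protein-coding genes, 19.4% held the NFAT letters, 6.2% AP-1, 13.0% RUNX, 14.1% TCF/LEF, 3.2% T-box and 19.0% ETS, and a match is a description of the letters only.

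Read per length, as CPM per kilobase of exon, *Cd48* was the highest member in all 7 groups, from 129 ± 25.1 (SD, n = 3) in Naive to 532 ± 361 (SD, n = 6) in S+P C4. Without the 3 low samples, S+P C4 was at 423 ± 78.7 (SD, n = 4) and S+P C7 was the top group at 524 ± 30.8 (SD, n = 4). *Slamf6* ranked second in Naive (26.1 ± 4.36, SD, n = 3), in both N+P subsets and in S+P C5 (115 ± 23.4, SD, n = 6). *Slamf7* ranked sixth in Naive at 2.46 ± 1.22 CPM per kilobase (SD, n = 3) and second in Sensitized at 39.8 ± 7.04 (SD, n = 4) and in the C4 and C7 subsets of S+P mice. *Cd244a* was the lowest member in every group but S+P C7, where it reached 12.1 ± 12.04 (SD, n = 5) and *Slamf1*, at 11.03 ± 8.95, was lowest. Without replicate 3 there, *Cd244a* was lowest in S+P C7 too, at 7.14 ± 5.47 against 13.8 ± 7.49 for *Slamf1* (SD, n = 4). *Cd84* and *Ly9* stayed between these extremes, at 16.7 to 37.1 CPM per kilobase over the group means.

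**Figure D1:**
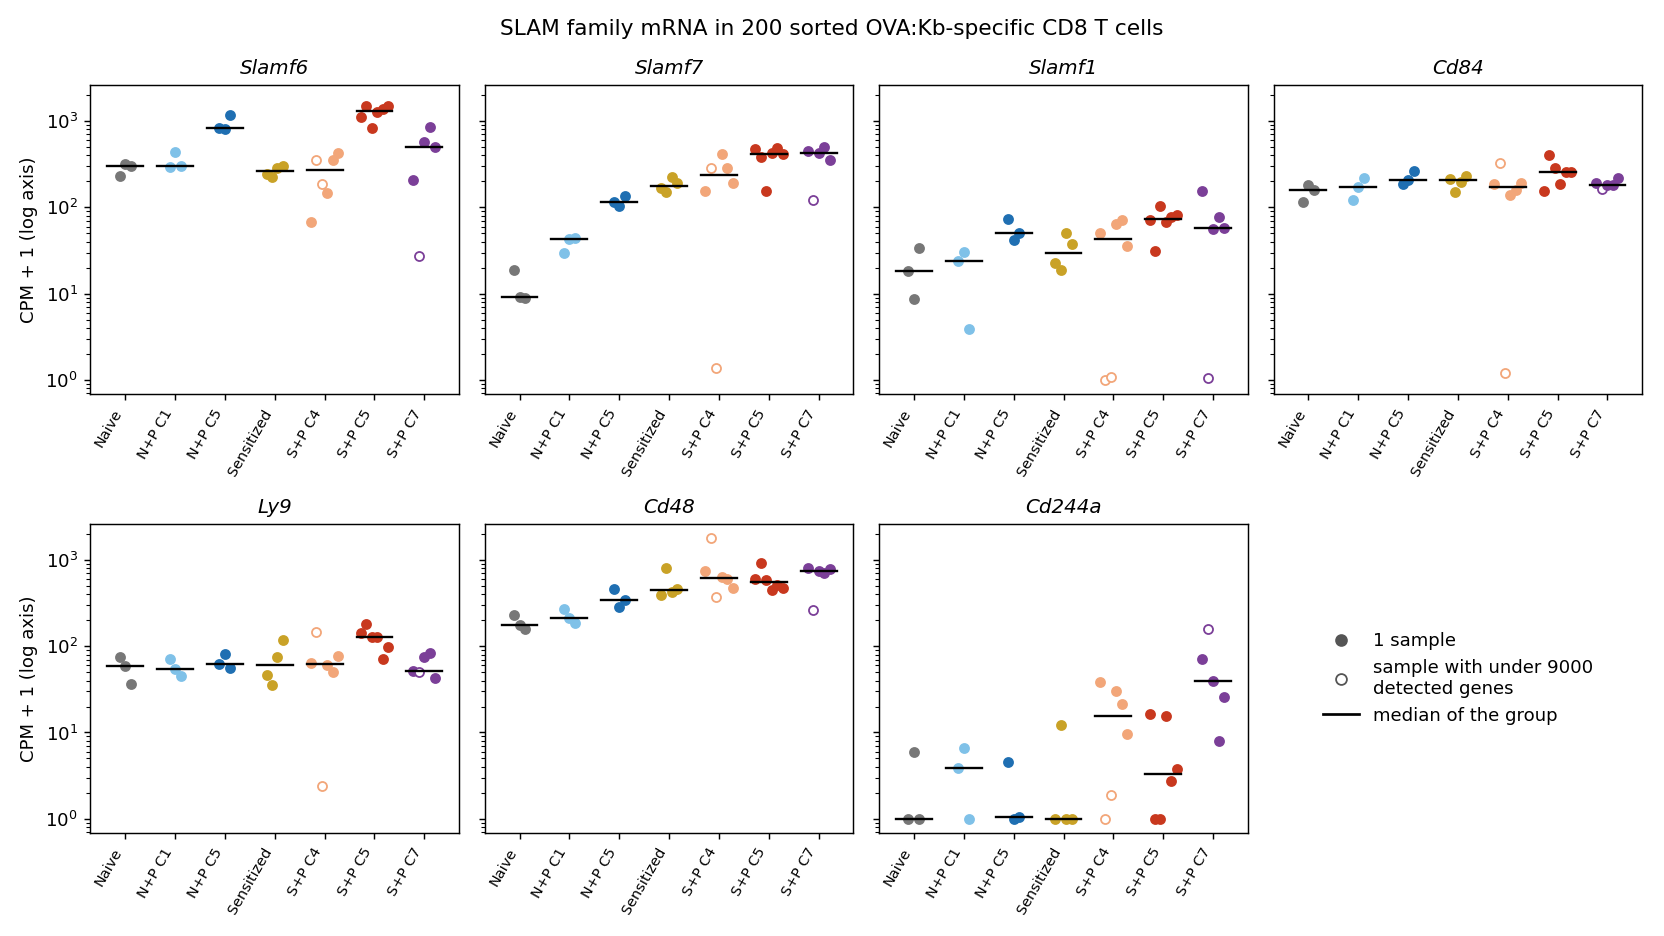
Level of each of the 7 receptors (CPM + 1, log axis) by group, with 1 point per sample, bars at group medians and open points for the 3 samples with fewer than 9000 detected genes. *Slamf6* stands highest in N+P C5 (812 to 1173 CPM) and S+P C5 (819 to 1477 CPM), *Slamf7* lies at 7.93 to 17.7 CPM in Naive and at 103 to 225 CPM in N+P C5 and Sensitized, and *Cd84* group means stay between 151 and 257 CPM.

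Each of 11 comparisons was made in a fit of all 30 samples with edgeR's quasi-likelihood test, and a gene was called at an adjusted p under 0.1 with an absolute log2 fold change above 0.9. Sensitized vs. Naive T_FGS asked what rejection of a graft left in these cells. There, *Slamf7* was called, 1 of 7 members against 0.153% of all genes, and 2 of 7 (*Slamf7* and *Cd48*) had an unadjusted p under 0.05 against 7.85% of all genes. The median log2 fold change was 0.69 over the members and 0.04 over all genes. DESeq2 called the same pair of members. It called far more genes in all, 1106 of the 33294 it tested here, so its calls are less rare than those of edgeR.

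Comparisons with Naive T_FGS after pregnancy followed. In N+P C1 vs. Naive no member was called by edgeR (0% of all genes were) and none had an unadjusted p under 0.05 (3.25% of all genes). DESeq2 called 0 members there (751 genes in all). N+P C5 vs. Naive gave 0 calls among the members (0.0407% of all genes), but *Slamf6*, *Slamf7* and *Cd48*, 3 of 7, were higher with an unadjusted p under 0.05 (5.34% of all genes). DESeq2 called 1 member, *Slamf7* (1018 genes in all). The members' median log2 fold change there was 0.95, against 0 over all genes. N+P C5 vs. N+P C1 gave 0 calls (0.00509% of all genes) and 1 member, *Slamf6*, with an unadjusted p under 0.05 (4.34% of all genes), and DESeq2 called 0 (830 genes in all).

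In the sensitized mice, S+P C4 vs. Sensitized gave 0 calls among the members with edgeR (0.00509% of all genes), 0 with an unadjusted p under 0.05 (12.7% of all genes) and 0 with DESeq2 (989 genes in all). S+P C5 vs. Sensitized gave 0 calls (0.0712% of all genes) and 1 member, *Slamf6*, with an unadjusted p under 0.05 (13.0% of all genes), which DESeq2 called (1056 genes in all). The members' median log2 fold change there was 1.05, against -0.005 over all genes. In these comparisons 1 member in 7 is a share close to that of all genes. S+P C7 vs. Sensitized gave 0 calls (0.0305% of all genes), 0 at an unadjusted p under 0.05 (10.2% of all genes) and 0 with DESeq2 (807 genes in all). The S+P comparisons share the Sensitized samples, and those with Naive share the Naive samples, so their values are set side by side only.

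Between subsets, *Slamf6* was called in S+P C5 vs. S+P C4, 1 of 7 members against 0.0305% of all genes. It was also the 1 member with an unadjusted p under 0.05 (13.3% of all genes) and the 1 member called by DESeq2 (1014 genes in all). S+P C7 vs. S+P C5 gave 0 calls with edgeR (0% of all genes), and *Slamf6* was lower with an unadjusted p under 0.05 (12.7% of all genes) and was called by DESeq2 (631 genes in all). Between the C5 subsets of both histories there were 0 calls (0% of all genes), 1 member, *Slamf7*, with an unadjusted p under 0.05 (5.90% of all genes) and 0 calls with DESeq2 (737 genes in all). The interaction asks whether S+P C5 differed from Sensitized by another amount than N+P C5 from Naive. It gave 0 calls among the members (0.0254% of all genes), 1, *Slamf7*, with an unadjusted p under 0.05 (6.43% of all genes) and 0 with DESeq2 (833 genes in all). Over all 77 member and comparison pairs, 11 had an unadjusted p under 0.05, and they belonged to *Slamf6* (5), *Slamf7* (4) and *Cd48* (2). The share of all genes at that p was 3.25% to 13.3% by comparison. The members' median log2 fold change, where not given above, was 0.25 in N+P C1 vs. Naive and 0.70 in N+P C5 vs. N+P C1. It was 0.22 in S+P C4 and 0.70 in S+P C7 vs. Sensitized, and 0.81 in S+P C5 vs. S+P C4. It was -0.08 in S+P C7 vs. S+P C5, 0.71 between the C5 subsets and -0.15 in the interaction. Over all genes these medians ran from -0.14 to 0.11. Comparisons share samples, so the 11 pairs are not independent of each other.

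**Figure D2:**
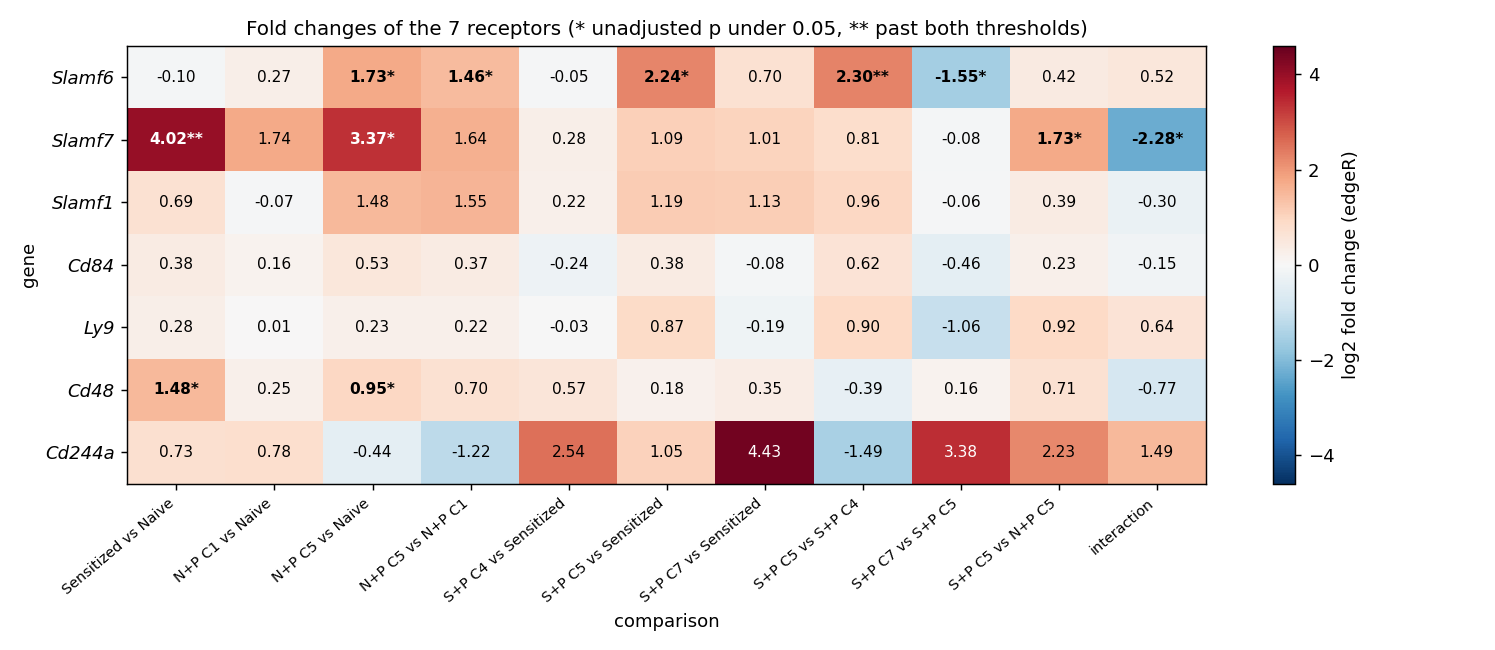
Log2 fold change of each receptor (rows) in each of the 11 comparisons (columns) from the edgeR fit, with color and number giving the same value. A star marks an unadjusted p under 0.05 and 2 stars mark a call, which *Slamf7* had in Sensitized vs. Naive (4.02) and *Slamf6* in S+P C5 vs. S+P C4 (2.30). Each comparison of *Cd244a*, with values up to 4.43, involves a group that has samples at 0 counts, and none of them has a star.

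*Slamf6*, the self-ligand receptor Ly108, was highest in the PD1+CD73+ subset of both kinds of post-partum mice. Its level was 230, 320 and 302 CPM in the 3 Naive mice and 293, 436 and 298 CPM in the C1 subset of N+P mice. In N+P C5 it was 832, 812 and 1173 CPM, above every Naive and N+P C1 sample. The 4 Sensitized mice had 241, 226, 288 and 304 CPM, overlapping with Naive and, at the upper end, with N+P C1. In S+P mice, C4 ranged from 67.6 to 423 CPM with a median of 269.6 CPM, C5 from 819 to 1477 CPM with a median of 1321 CPM, and the 5 samples of C7 had 204, 26.3, 572, 850 and 494 CPM. The S+P C5 samples lay above all Sensitized and S+P C4 samples, while S+P C7 reached into the lower end of S+P C5. Only replicate 3 of S+P C7, a low sample, lay below S+P C4, and without it S+P C7 ranged from 204 to 850 CPM.

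*Slamf6* rose in S+P C5 vs. S+P C4, with a log2 fold change of 2.30 ± 0.46 (SE) and an adjusted p of 0.0601 (edgeR). It was higher in C5 than in C4 of the same mouse in 6 of 6 mice, by 3.496 to 16.4 times. With the mouse as a block the log2 fold change was 2.501 ± 0.32 (SE) but the adjusted p was 0.113, so the call was lost. It was also lost without S+P C4 replicate 1, 3 or 4 or S+P C5 replicate 2, 4, 5 or 6 (adjusted p 0.152 to 0.236 by edgeR), and held without the 3 samples of fewer than 9000 genes (log2 fold change 2.32, adjusted p 0.00621). Over all alternatives its adjusted p ran from 0.000111 to 0.240 and its log2 fold change from 2.08 to 2.501.

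The other *Slamf6* differences had an unadjusted p under 0.05 and did not pass the adjustment by edgeR. S+P C5 was 2.24 ± 0.53 (log2, SE) above Sensitized with an adjusted p of 0.176. It was called without the 3 low samples (adjusted p 0.00182) and with the replicate number as a block (2.14 ± 0.24, adjusted p 0.0910), although equal numbers there are different mice, and over all alternatives its adjusted p ran from 0.00043 to 0.494. N+P C5 was 1.73 ± 0.63 (log2, SE) above Naive with an adjusted p of 0.763, and 0.0999 without the 3 low samples, where it was called, in a range of 0.056 to 1. N+P C5 was 1.46 ± 0.63 (log2, SE) above N+P C1 with an adjusted p of 0.917, and higher in 3 of 3 mice. S+P C7 was -1.55 ± 0.47 (log2, SE) relative to S+P C5 with an adjusted p of 0.277, and lower in 5 of 5 mice, at 0.0321 to 0.618 of the C5 level. For that difference S+P C7 replicate 3, at 26.3 CPM, was the lowest sample, and without the 3 low samples the log2 fold change was -1.26 and the adjusted p 0.277. Over all alternatives its adjusted p ran from 0.0811 to 1.00, the lowest with DESeq2.

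The direct comparison of S+P C5 with N+P C5 and the interaction gave *Slamf6* log2 fold changes of 0.42 and 0.52, and neither had an unadjusted p under 0.05. B cells also express *Slamf6*, and the summed level of 6 B cell markers was higher in the C5 subsets, at 73.1 to 105.5 CPM in N+P mice and 69.3 to 219 CPM in S+P mice, against 11.8 to 35.4 CPM in Naive, 20.1 to 36.4 CPM in N+P C1, 17.2 to 38.1 CPM in Sensitized, 0 to 59.6 CPM in S+P C4 and 0.0934 to 146 CPM in S+P C7. Most of that sum in S+P C5 was *Cd22* (69.1 to 212 CPM). In N+P C5 *Cd22* (31.5 to 57.6 CPM) and *Cd79b* (33.3 to 61.2 CPM) both lay above N+P C1 (at most 13.7 and 27.5 CPM), whereas *Cd79b* was at 0 to 25.96 CPM in S+P C5. *Ms4a1* was at 0 in 27 of 30 samples with at most 3.04 CPM, and *Pax5* was at 0 in 25 with at most 0.748 CPM. The part of B cell RNA in the *Slamf6* values was not tested.

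*Slamf7*, the self-ligand receptor CRACC of cytotoxic lymphocytes, had its lowest group mean in Naive and its highest in S+P C5 and S+P C7. It was at 17.7, 8.22 and 7.93 CPM in the 3 Naive mice and at 28.3, 41.7 and 42.98 CPM in the C1 subset of N+P mice. It was at 114, 103 and 134 CPM in N+P C5 and at 167, 150, 225 and 189 CPM in the 4 Sensitized mice. None of these 4 groups overlapped with another. S+P C4 ranged from 0.397 to 418 CPM (median 239), S+P C5 from 152 to 488 CPM (median 419), and the 5 S+P C7 samples had 444, 121, 429, 502 and 349 CPM. The lowest values of the 3 S+P subsets were all replicate 3, that is, the same mouse, and 2 of its 3 samples had fewer than 9000 detected genes.

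*Slamf7* rose in Sensitized vs. Naive T_FGS by 4.02 ± 0.92 (log2, SE), with an adjusted p of 0.0851 (edgeR). Without the 3 low samples, which are in neither of these groups but entered the shared spread, the log2 fold change was 4.02 ± 0.399 (SE) and the adjusted p 6.83e-07. The call was lost when any 1 of the 7 mice, Naive replicates 1 to 3 or Sensitized replicates 1 to 4, was left out (adjusted p 0.128 to 0.789), when all deposited columns were kept (0.121), without a filter on low counts (0.248) and with the replicate number as a block (0.174), although equal numbers are different mice in these groups. Its adjusted p ran from 6.83e-07 to 0.789 over all alternatives, while the log2 fold change stayed between 3.82 and 4.502.

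Against the same Naive samples, N+P C5 had a *Slamf7* log2 fold change of 3.37 ± 0.91 (SE) with an adjusted p of 0.4002, and 3.403 ± 0.396 (SE) with 9.65e-06 without the 3 low samples, in a range of 9.65e-06 to 1. N+P C1 had a log2 fold change of 1.74, without an unadjusted p under 0.05, and was called without the 3 low samples (1.76 ± 0.37, adjusted p 0.0718 by edgeR). S+P C5 was 1.73 ± 0.78 (log2, SE) above N+P C5 with an adjusted p of 0.833, and 0.0525 without the 3 low samples, in a range of 0.0525 to 1. Within mice, C5 was above C1 in 3 of 3 N+P mice, by 2.47 to 4.02 times. In S+P mice it was above C4 in 6 of 6, by 1.01 times in the closest mouse and 1.94 times at the median, and S+P C7 was above C5 in 2 of 5 and below it in 3.

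The *Slamf7* difference between S+P C5 and Sensitized (log2 fold change 1.09) had an adjusted p of 0.611, and 0.0852, a call, without the 3 low samples. It was smaller than that between N+P C5 and Naive (3.37). Their difference was -2.28 ± 1.06 (log2, SE) with an adjusted p of 0.726 for the interaction, and -2.30 ± 0.46 (SE) with an adjusted p of 0.0310, a call, without the 3 low samples. Over all alternatives that adjusted p ran from 0.0310 to 1 and the log2 value from -2.77 to -2.08.

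Setting the 2 receptors against each other within a sample removes library size. The ratio of *Slamf6* to *Slamf7*, each per kilobase of exon, was 5.48, 16.4 and 16.1 in Naive mice. In N+P mice it was 4.36, 4.41 and 2.93 for C1 and 3.08, 3.33 and 3.69 for C5. It was 0.612, 0.633, 0.539 and 0.677 in the Sensitized mice, so *Slamf6* exceeded *Slamf7* in all samples of mice without a graft and in none of the Sensitized. S+P C5 ran from 0.997 to 2.27 with a median of 1.38, above all Sensitized samples and below all of N+P C5. S+P C7 ran from 0.0919 to 0.714, and S+P C4 from 0.148 to 0.931 apart from replicate 3, where *Slamf7* was at 0.397 CPM and the ratio was 197.

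**Figure D3:**
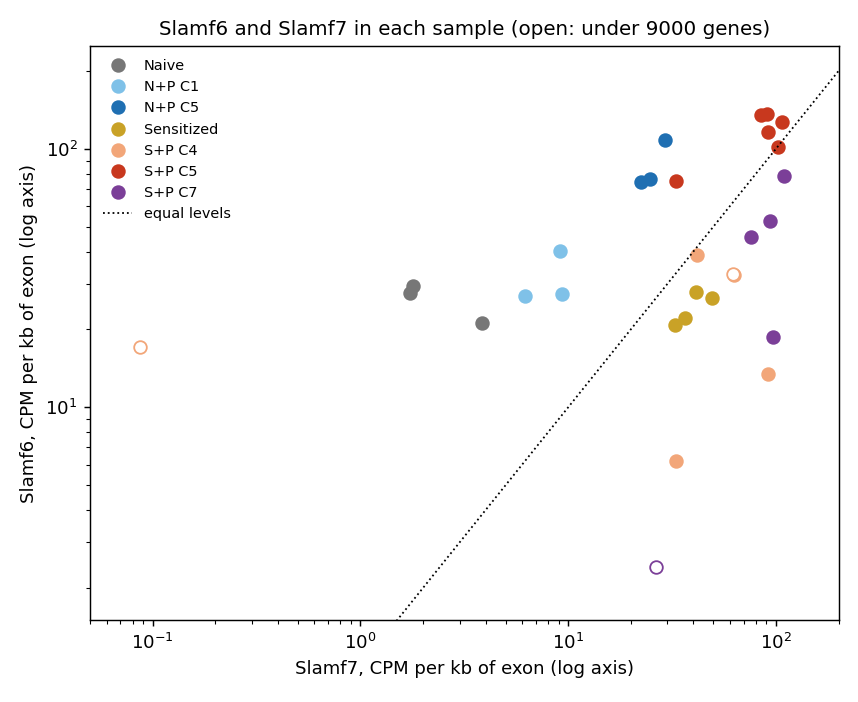
*Slamf6* against *Slamf7* in each sample, both in CPM per kilobase of exon on log axes, colored by group, with a dotted line at equal levels and open points for the 3 samples with fewer than 9000 detected genes. Naive and both N+P subsets lie above the line, Sensitized and S+P C7 below it, and S+P C5 at the upper right with ratios of 0.997 to 2.27.

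*Cd48*, the GPI-anchored ligand of CD244 and CD2, was abundant in every sample. It was at 226.99, 173 and 158 CPM in Naive, and in N+P mice at 268, 211 and 185 CPM in C1 and at 457, 281 and 342 CPM in C5. The Sensitized mice had 390, 799, 419 and 463 CPM, all above Naive and N+P C1. In S+P mice the median was 612 CPM in C4 (369.6 to 1799), 545 CPM in C5 (446 to 925) and 738 CPM in C7 (262 to 807), and these 3 groups overlapped with each other and with Sensitized. Without the 3 low samples the range was 472 to 747 CPM in S+P C4 and 705 to 807 CPM in S+P C7.

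Sensitized was 1.48 ± 0.44 (log2, SE) above Naive for *Cd48* with an adjusted p of 0.505 (edgeR), and 1.47 ± 0.27 (SE) with 0.00294, a call, without the 3 low samples, in a range of 0.00294 to 0.812. N+P C5 was 0.95 ± 0.45 (log2, SE) above the same Naive samples with an adjusted p of 0.763, in a range of 0.159 to 1. In S+P mice C5 was below C4 in 5 of 6 and C7 above C5 in 4 of 5, without an unadjusted p under 0.05 for S+P C5 vs. S+P C4 or S+P C7 vs. S+P C5. *Cd2*, a partner of CD48 on T cells, had 449 ± 79.4 CPM (SD, n = 3) in Naive and 753 ± 161 CPM (SD, n = 4) in Sensitized.

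*Cd244a*, which encodes the CD48 receptor 2B4, was the one sparse member, with 3 or fewer counts in 25 of the 56 libraries as deposited and 0 in 23. It was at 0, 4.97 and 0 CPM in Naive, at 2.92, 5.61 and 0 CPM in the C1 subset of N+P mice, at 3.59, 0 and 0.0621 CPM in their C5 subset and at 0, 11.1, 0 and 0 CPM in Sensitized. S+P C4 ranged from 0 to 37.8 CPM (median 14.5) and S+P C5 from 0 to 15.3 CPM (median 2.27). All 5 S+P C7 samples had it, at 70.8, 157, 38.4, 7.06 and 24.5 CPM. Detection in every sample was thus seen in S+P C7, and the 4 S+P C4 samples with over 9000 genes had 8.68 to 37.8 CPM.

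Within S+P mice *Cd244a* was higher in C7 than in C5 in 5 of 5 and lower in C5 than in C4 in 5 of 6, with the remaining mouse at 0 in both. None of its 11 comparisons had an unadjusted p under 0.05, and the log2 fold changes ran from -1.49 to 4.43. NK cells also express *Cd244a*. The highest value, 157 CPM, was in S+P C7 replicate 3, the sample with 1003 CPM of NK markers. The part of NK cell RNA in that value was not tested. In the other 4 S+P C7 samples the NK markers summed to 4.23 to 79.1 CPM. In Sensitized they summed to 68.7 to 142 CPM, mostly *Klrb1c* (53.3 to 126 CPM), with *Ncr1*, *Klra4* and *Klra8* each at 0 in 3 of 4 mice. A sum led by 1 marker need not measure NK cells.

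**Figure D4:**
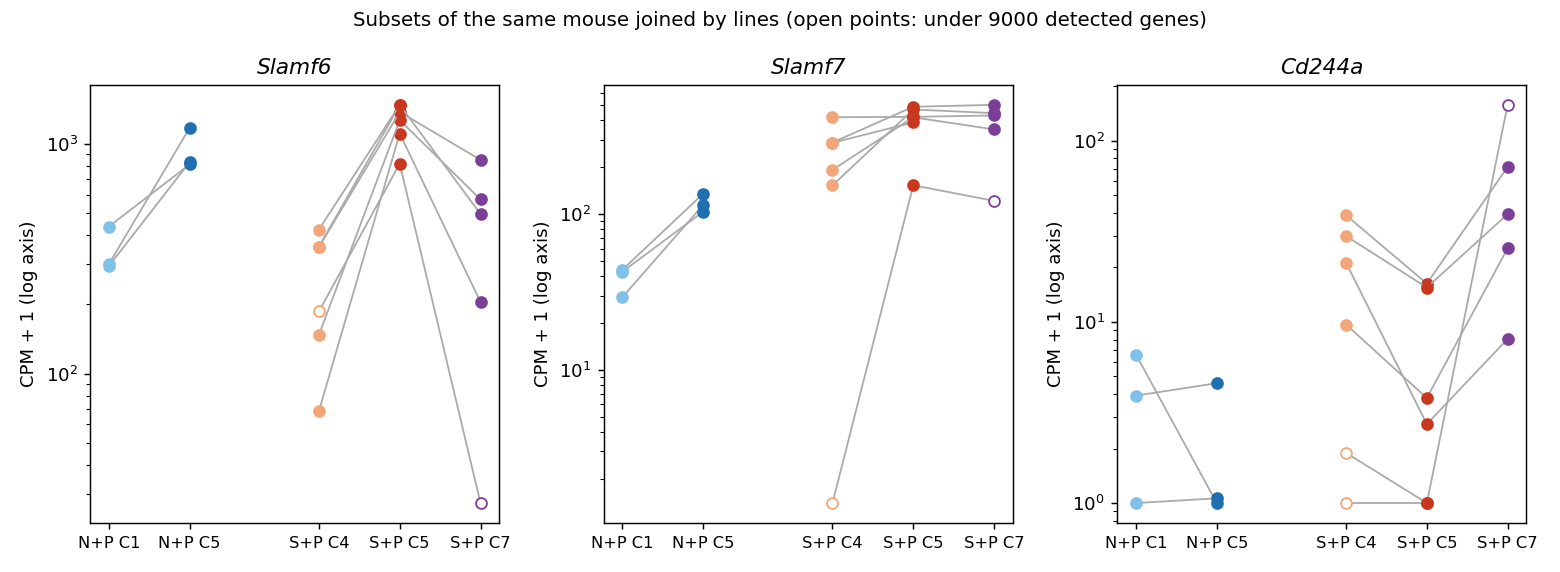
*Slamf6*, *Slamf7* and *Cd244a* (CPM + 1, log axis) in the sorted subsets, with lines joining subsets of the same mouse and open points for samples with fewer than 9000 detected genes. *Slamf6* goes up from C1 to C5 in 3 of 3 and from C4 to C5 in 6 of 6 mice and down from C5 to C7 in 5 of 5, while *Cd244a* goes up from C5 to C7 in 5 of 5. The S+P C7 point of replicate 1 also includes a library labeled replicate 2.

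*Slamf1* (CD150), a self-ligand receptor that on myeloid cells also serves as a microbial sensor, was low and variable. It was at 17.5, 7.59 and 32.9 CPM in Naive, 22.95, 29.3 and 2.93 CPM in the C1 subset of N+P mice, 71.9, 40.8 and 49.3 CPM in their C5 subset and 21.6, 17.8, 48.9 and 36.3 CPM in Sensitized. N+P C5 lay above all Naive and N+P C1 samples and overlapped with Sensitized. S+P C5 had 30.6 to 102 CPM (median 72.9). The 3 low samples had at most 0.0992 CPM, and the other samples had 34.8 to 69.7 CPM in S+P C4 and 54.7 to 153 CPM in S+P C7. None of its 11 comparisons had an unadjusted p under 0.05 (log2 fold changes -0.30 to 1.55), although C5 was above C1 in 3 of 3 and above C4 in 6 of 6 mice.

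*Cd84* (SLAMF5), a self-ligand receptor of T and B cell contacts, was the steadiest member. Group means ran from 151 ± 33.3 CPM (SD, n = 3) in Naive to 257 ± 87.6 CPM (SD, n = 6) in S+P C5, and all 7 groups overlapped in this order with the next lower group. S+P C4 replicate 3 was at 0.198 CPM, whereas S+P C7 replicate 3 was at 163.5 CPM, in the range of the Naive samples (114 to 179.7 CPM). Its 11 log2 fold changes were -0.46 to 0.62, and none had an unadjusted p under 0.05.

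*Ly9* (CD229), another self-ligand receptor, had group means of 55.4 to 67.5 CPM in 6 groups and of 123 ± 38.0 CPM (SD, n = 6) in S+P C5. The S+P C5 samples were at 139, 181, 126, 128, 69.5 and 96.3 CPM, and they overlapped with Sensitized (34.2 to 116 CPM) and S+P C7 (41.7 to 82.0 CPM). S+P C5 exceeded C4 in 6 of 6 mice and C7 in 4 of 5. None of the 11 comparisons had an unadjusted p under 0.05, and their log2 fold changes were -1.06 to 0.92. Without the 3 low samples, S+P C5 was 0.98 ± 0.32 (log2, SE) above S+P C4 with an adjusted p of 0.315 (edgeR).

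Paired technical libraries labeled as the same mouse and subset show the technical part of this spread. All deposited libraries were used here, so the pairs of Naive replicate 1 and S+P C4 replicate 1 both hold the library deposited under both groups. Over 25 such pairs, the median absolute log2 difference of CPM + 1 was 0.28 for *Cd48*, 0.34 for *Slamf6*, 0.35 for *Cd84* and 0.41 for *Slamf7*. It was 0.81 for *Ly9*, 1.24 for *Slamf1* and 1.38 for *Cd244a*. The largest difference within a pair was 1.065 for *Cd84*, 1.47 for *Slamf6*, 2.07 for *Cd48* and 3.69 for *Slamf1*. It was 4.18 for *Slamf7*, 5.11 for *Cd244a* and 5.43 for *Ly9*, so single libraries of a pair could lie far apart.

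The family genes outside the 7 were next to absent. *Slamf9* had no count in any sample, and *Slamf8* was above 0 in 3 of 30 samples, with at most 2.2003 CPM, too few for a fold change. Both are known from myeloid cells.

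Of 12 genes listed as partners of SLAM signaling, 10 were tested, and none was called in any of the 11 comparisons with edgeR. At an unadjusted p under 0.05 there was 1 of 10 higher in Sensitized vs. Naive (7.85% of all genes passed this p in either direction), 3 in N+P C5 vs. Naive (5.34%), 3 in S+P C5 vs. Sensitized (13.0%), 2 in S+P C7 vs. Sensitized (10.2%), 3 in S+P C5 vs. S+P C4 (13.3%), 2 between the C5 subsets of both histories (5.90%) and 0 in the other 5 comparisons, and none was lower. The count in Sensitized vs. Naive is near the share of all genes. They were all *Sh2d1a*, *Fyn* or *Ptpn11*. *Sh2d1b1* and *Sh2d1b2*, which encode the related adaptors EAT-2 and ERT of NK cells, had at most 2.11 CPM and were not tested.

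*Sh2d1a*, the adaptor SAP, was at 62.1, 60.4 and 62.9 CPM in Naive, 67.2, 84.7 and 77.2 CPM in the C1 subset of N+P mice, 95.1, 156 and 163 CPM in their C5 subset and 116, 146, 117 and 93.6 CPM in Sensitized. S+P C5 ranged from 247 to 610 CPM (median 363), above all samples of these 4 groups, and exceeded C4 in 6 of 6 mice, by 1.85 to 4.24 times. It was 1.81 ± 0.45 (log2, SE) above Sensitized with an adjusted p of 0.205, 1.58 ± 0.49 above N+P C5 with 0.807, and 1.18 ± 0.38 above S+P C4 with 0.297 (edgeR). N+P C5 was 1.16 ± 0.53 (log2, SE) above Naive with an adjusted p of 0.763, and S+P C7 was 1.02 ± 0.44 above Sensitized with 0.473. *Sh2d1a* shares 1465 exonic bases with another annotated gene, *Tenm1*.

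*Fyn*, the kinase that SAP recruits, was at 102 ± 26.5 CPM (SD, n = 3) in Naive, 209.6 ± 63.8 (SD, n = 4) in Sensitized, and in the C5 subset at 245 ± 98.1 (SD, n = 3) after N+P and 439 ± 82.4 (SD, n = 6) after S+P. In the latter all samples (379.6 to 575 CPM) lay above all Sensitized samples (147 to 298 CPM). S+P C5 was 1.07 ± 0.35 (log2, SE) above Sensitized with an adjusted p of 0.276, 0.84 ± 0.30 above S+P C4 with 0.297 and 0.84 ± 0.38 above N+P C5 with 0.838 (edgeR). Against Naive the log2 fold change was 1.04 ± 0.41 (SE) in Sensitized with an adjusted p of 0.626 and 1.26 ± 0.43 in N+P C5 with 0.763, and S+P C7 was 0.78 ± 0.35 above Sensitized with 0.473. *Ptpn11*, which encodes the phosphatase SHP-2, was at 24.8, 21.6 and 28.0 CPM in Naive and at 171, 204 and 160 CPM in N+P C5. S+P C5 had 113 to 376 CPM against 14.0 to 56.6 CPM in Sensitized. The log2 fold changes were 2.84 ± 1.20 (SE) with an adjusted p of 0.763 for N+P C5 vs. Naive and 2.34 ± 0.97 (SE) with 0.289 for S+P C5 vs. Sensitized, and S+P C5 was 1.76 ± 0.82 above S+P C4 with 0.336. *Lck*, *Csk*, *Prkcq*, *Vav1*, *Ptpn6*, *Inpp5d* and *Cd2* had no comparison with an unadjusted p under 0.05.

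**Figure D5:**
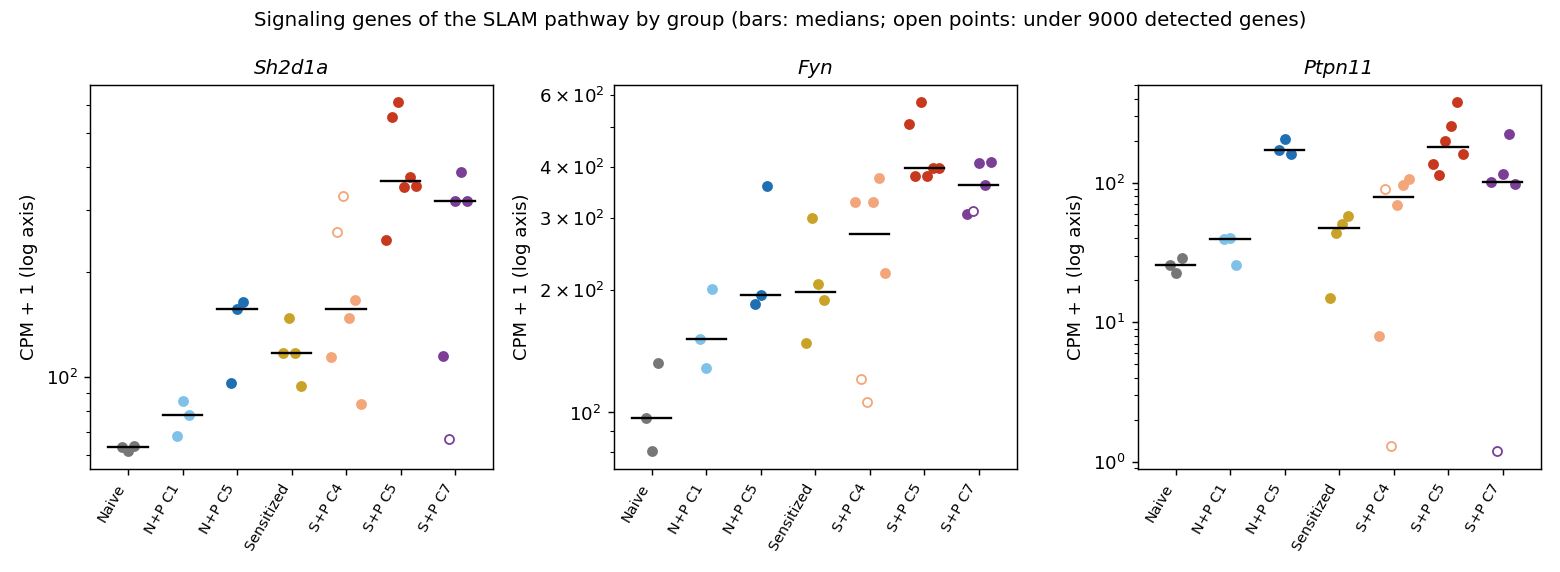
*Sh2d1a*, *Fyn* and *Ptpn11* (CPM + 1, log axis) by group, with 1 point per sample, bars at medians and open points for samples with fewer than 9000 detected genes. The C5 subsets lie above the unmated group of the same history for *Ptpn11* (N+P C5 160 to 204 CPM, Naive 21.6 to 28.0 CPM) and *Sh2d1a* (S+P C5 247 to 610 CPM, Sensitized 93.6 to 146 CPM).

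The genes whose log2 CPM followed each member most closely over the 30 samples were taken by Pearson's r, given as a description, since the samples share groups and depth. For *Slamf6* they were *Rabgap1l* (r 0.87), *Mllt3* (0.87) and *Cd27* (0.85), and without the 3 low samples the values were 0.88, 0.91 and 0.78. For *Slamf7* they were *Plek* (0.92), *Il10ra* (0.91) and *Ly6a* (0.90), with 0.88, 0.89 and 0.82 without them. For *Cd48* they were *Lgals1* (0.90), *Nkg7* (0.89) and *S100a10* (0.86), with 0.94, 0.96 and 0.92 without them. *Cd244a* was followed less closely, by *Pycard* (0.76), *Gm50012* (0.73) and *Aspm* (0.71).

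For *Slamf1*, *Cd84* and *Ly9* likeness rested on the 3 low samples. *Cd84* had r 0.97 with *Tsg101*, *Znrf2* and *Dennd1b* and 0.63, 0.45 and 0.41 without them. *Slamf1* had 0.96, 0.95 and 0.94 with *Prkcz*, *Ccdc50* and *Dbf4* and 0.71, 0.68 and 0.60 without them, and *Ly9* had 0.91, 0.90 and 0.90 with *Rtn3*, *Cyb5r4* and *Lpar6* and 0.50, 0.48 and 0.46. Among the members themselves the closest pair without the 3 low samples was *Slamf7* and *Cd48* (r 0.86, and 0.64 with all 30), whereas *Slamf6* had r 0.34 with *Slamf7* and 0.10 with *Cd48*.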

How the data were processed

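RNA-Seq was performed with SmartSeq2 and Nextera XT on T_FGS sorted from 7 groups, without molecular identifiers and in 1 sequencing run. The authors deposited raw counts per gene for 56 libraries. To make them, per the labels, reads were trimmed with cutadapt 3.4, aligned with STAR 2.6.1b to GRCm39 and counted with featureCounts 2.0.1, and multi-mapped reads were removed. Strand setting and annotation release are not given in the sources used here.

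Technical libraries were summed to 30 samples. edgeR 4.0.16 (R 4.3.3) was run with TMM, filterByExpr (minimum count 10) and a robust quasi-likelihood fit of all 7 groups, with two-sided tests and p-values adjusted by Benjamini-Hochberg across all 19659 genes left. CPM used TMM-scaled library sizes, and log2 CPM a prior count of 2. Exon lengths and positions came from GENCODE M39 (54749 of 55359 genes matched). DESeq2 1.42.0 and the other alternatives are described in the closing section. Precision is limited by depth and by PCR. The p-values use a spread estimated over the samples of all 7 groups, also those outside a comparison. The main fit treats subsets of the same mouse as separate samples.

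The 7 members, the signaling list and the tests were chosen with earlier results of these data known. Fold changes are printed for every member and comparison with an unadjusted p under 0.05, and signaling genes by the same rule. Subsets with the same number were read as 1 mouse from the labels' numbering. Deviations from group means correlated by 0.0473 on average (0.0173 to 0.066) for the same number and -0.0236 for different numbers in N+P, and by 0.132 (0.0433 to 0.313) and -0.0200 in S+P, so the data alone show this pairing weakly. The pipeline was tested on simulated data. Results for protein were not analysed here.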

Additional observations from a re-analysis of the deposited data

Results flagged for a closer look

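A sample was flagged when its log2 CPM stood apart from the rest of its group by Dixon's criterion, which chance alone meets in about 1 of 20 groups, and 9 values among 28 member and group sets did so. S+P C4 replicate 3 was the lowest sample of its group for *Slamf7* (0.397 CPM), *Cd84* (0.198 CPM) and *Ly9* (1.39 CPM). S+P C7 replicate 3 was the lowest for *Slamf1* (0.0467 CPM), *Slamf7* (121 CPM) and *Cd48* (262 CPM). S+P C5 replicate 3, from the mouse with the same number, was the lowest for *Slamf7* (152 CPM). S+P C5 replicate 2 was the lowest for *Slamf1* (30.6 CPM). Sensitized replicate 2 was the highest for *Cd244a* (11.1 CPM, the other 3 mice being at 0).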

How the results depend on the processing

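The log2 fold changes of the 11 member and comparison pairs with an unadjusted p under 0.05 kept their direction under every alternative run, and none of 195 values reversed. The number of called members was the same in 175 of 212 recomputed counts.

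In Sensitized vs. Naive the 1 call became 2 with DESeq2 and without the 3 samples of fewer than 9000 genes. All genes called rose there from 30 to 1106 and 153. The call became 0 at an adjusted p under 0.05, with no filter, with all columns kept, with the replicate block and without any 1 mouse. In S+P C5 vs. S+P C4 the 1 call became 0 at an adjusted p under 0.05, with no filter and with the replicate block, and 0 to 1 when 1 mouse was left out.

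Comparisons with 0 calls gained some. Without the 3 low samples there were 1 in N+P C1 vs. Naive, 2 in N+P C5 vs. Naive, 2 in S+P C5 vs. Sensitized, 1 between the C5 subsets of both histories and 1 in the interaction. In the same order, all genes called rose from 0, 8, 14, 0 and 5 in the main fit to 19, 121, 199, 16 and 27. With only the groups compared there were 2 in N+P C5 vs. Naive, 2 in N+P C5 vs. N+P C1, 1 in S+P C5 vs. Sensitized and 1 in the interaction. All genes called there rose from 8, 1, 14 and 5 to 57, 51, 142 and 30. DESeq2 gave 1 in N+P C5 vs. Naive, 1 in S+P C5 vs. Sensitized and 1 in S+P C7 vs. S+P C5, among 1018, 1056 and 631 genes it called in all. In S+P C5 vs. Sensitized, a mean of at least 10 CPM gave 1 (26 genes in all) and the replicate block 1 (14 genes in all). Besides these 3 comparisons the block changed no call among the members. RLE normalization and no minimum fold change changed no count. The causes were not tested.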
